A study of Mus musculus with 5 samples.

Results

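Genes of the extracellular matrix and its receptors were read in RNA-Seq libraries of proliferating mouse neural stem/progenitor cells (NSPCs). Members were chosen by gene symbol alone. The symbols covered collagen chains, laminin chains, integrin subunits, matrix metalloproteinases, their tissue inhibitors, Adamts proteases, glypicans, syndecans and thrombospondins. *Fn1*, *Tnc*, *Tnr*, *Vcan*, *Ncan*, *Bcan*, *Ptprz1*, *Sparc*, *Nid1*, *Nid2*, *Hspg2* and *Agrn* were added by name. Of the 12588 symbols or identifiers in the table, 113 were members, and these had 169 listed transcripts. A mean of at least 50 normalized counts over the 5 libraries was reached by 77 members, beside 10786 of all genes. The remaining 36 members lay under this minimum and are counted separately. The symbol pattern also matched *Itgb1bp1*, *Itgb3bp* and *Col4a3bp*. These 3 genes are neither matrix proteins nor integrins, and they are kept as a group of their own.

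The study compared NSPC cultures with and without the p75 neurotrophin receptor (p75NTR), a receptor for neurotrophins, to find genes that depend on it. There were 2 libraries labelled WT (genotype p75NTR+/+, littermates, replicates 1 and 4) and 3 libraries labelled p75NTR-/- (replicates 1, 2 and 4), all on the C57BL/6J background and without treatment. All cultures were grown in medium with 20 ng/ml FGF-2, 20 ng/ml EGF and the B-27 supplement. The labels give E12.5 embryos as the source, whereas the paper describes adult NSPCs, and the table does not decide between them. Cells selected by growth in these factors stand for progenitors in culture, not for a tissue with vessels, nerves and matrix around it. The preparations are described as independent, but the labels tie no library to an animal, a litter or a culture day, so p-values measure the spread between these libraries. Because p75NTR-/- is a germline knockout, all cells of such a culture should carry it.

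The extracellular matrix is a mesh of secreted proteins and proteoglycans around cells. Collagen IV, laminins, nidogens and perlecan build the basement membrane, a thin sheet on which stem cells of the brain rest. Brain matrix outside this sheet is poor in fibrillar collagen and rich in chondroitin sulfate proteoglycans and tenascins. Integrins are receptors of an alpha and a beta subunit that bind matrix outside the cell and the actin cytoskeleton inside it, and migrating cells pull on them. Metalloproteinases and Adamts proteases cut the matrix, and the tissue inhibitors of metalloproteinases (TIMPs) hold many of these enzymes in check.

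The recovered totals ranged from 11688211 to 14452396 counts per library. *Ngfr*, the gene of p75NTR, went against the labels: the WT libraries (replicates 1, 4) held 0.98 and 2.08 normalized counts of it and the p75NTR-/- libraries (replicates 1, 2, 4) 9.89, 141 and 251. The methods do not describe the deleted exon of the line, and a count over the whole transcript does not show whether an exon is missing. Groups are therefore named by their labels, and each direction is one between labels. Replicate 4 labelled WT and replicate 4 labelled p75NTR-/- were the most alike of the 10 pairs of libraries. Their median difference was 0.0923 on the log2 scale over all genes of mean 50 or more, against 0.145 to 0.346 for the other pairs. The median chi-square of their counts was 1.03 per gene over all genes and 5.18 per member, where sampling noise alone would give a median of 0.455. They were counted as separate libraries.

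Throughout, a normalized count is the deposited value less 0.5, summed over the listed transcripts of a gene, and it compares libraries for the same gene. TPM values (transcripts scaled to a common total) account for length and were used to compare levels between genes. Differences were tested with limma on log2(normalized count + 1) over all genes, which shrinks the differences of scarce genes. A gene was called at a mean of at least 50 normalized counts, a 1.5-fold change and a Benjamini-Hochberg adjusted p under 0.05. Values follow in a fixed order, which is replicates 1 and 4 for the WT label and replicates 1, 2 and 4 for the p75NTR-/- label.

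Some integrin subunits and the genes of brain matrix proteoglycans were among the members of highest mRNA level. *Ptprz1*, a receptor phosphatase that carries chondroitin sulfate chains, had the highest level, with a mean of 420.1 TPM over the 5 libraries. *Bcan* (brevican) and *Ncan* (neurocan), chondroitin sulfate proteoglycans that bind hyaluronan, followed within this group at 332 and 171 TPM. *Tnc*, the gene of tenascin-C, reached 79.4 TPM, whereas its relative *Tnr* (tenascin-R) stayed at 1.33. *Itgb1*, the beta subunit shared by most integrins that bind laminin, collagen or fibronectin, had 278 TPM. *Itgb8* and *Itgb5*, whose products pair with the alpha v subunit, had 69.7 and 24.3 TPM. Of the alpha subunits, *Itgav* (alpha v) was the highest at 146 TPM, ahead of the laminin receptor subunits *Itga6* at 54.4 and *Itga7* at 22.9.

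Enzymes that cut the matrix were present together with their inhibitors. The membrane-bound metalloproteinases *Mmp15*, *Mmp14* and *Mmp16* had 116, 38.7 and 24.8 TPM, while the secreted gelatinase *Mmp2* was at 0.45. *Timp4*, *Timp3* and *Timp2* had 126, 75 and 59 TPM. The Adamts proteases were lower. *Adamts4*, an enzyme that cuts brevican and related proteoglycans, led them at 11.6 TPM, followed by *Adamts14* at 11.2 and *Adamts1* at 10.4. Among the heparan sulfate proteoglycans, *Sdc4*, *Sdc3* and *Sdc2* had 162, 115 and 59.8 TPM. These are syndecans, which span the cell membrane.

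Structural matrix genes ranged from high to scarcely detected. *Sparc*, a secreted protein that binds collagen, had 110.1 TPM, whereas *Fn1* (fibronectin) had 5.45 and *Thbs3* (a thrombospondin) 3.1. The shared laminin gamma chain *Lamc1* was at 72.1 TPM, the heparan sulfate proteoglycan *Agrn* (agrin) at 32.3 and the laminin beta chain *Lamb2* at 19. *Col4a5*, *Col5a2* and *Col16a1* were the highest of the basement membrane, fibrillar and other collagens, at 19.5, 16.7 and 17.4 TPM. *Col1a1*, the main collagen chain of connective tissue, had 0.382 TPM. In all, 10 members reached a mean of 100 TPM and 38 stayed under 1 TPM. At least 1 library had 3 counts or fewer for 16 members, 8 of them collagen chains. The 3 genes matched by name only had 44.5 (*Itgb1bp1*), 30.8 (*Itgb3bp*) and 7.2 TPM (*Col4a3bp*).

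**Figure D1:**
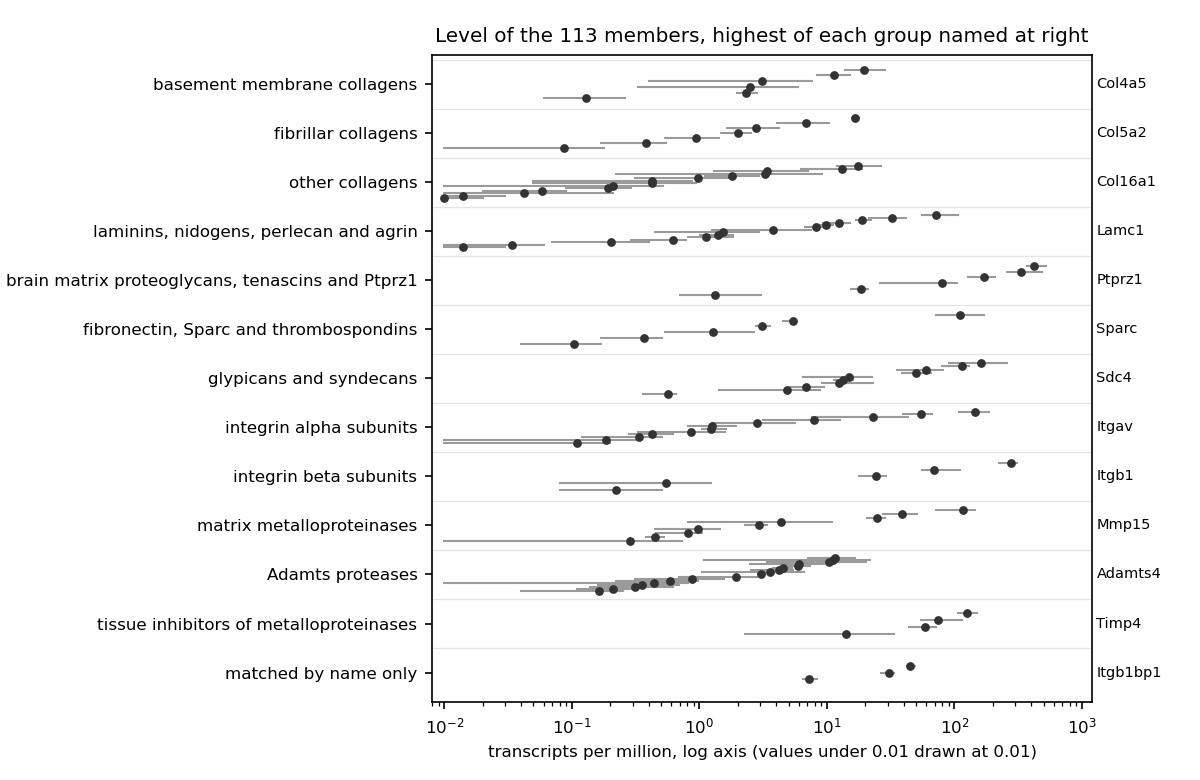
Mean level of each of the 113 members in TPM (log axis), grouped by role. Each point is the mean of the 5 libraries and each grey line runs from the lowest to the highest library. *Ptprz1* and *Bcan* lie highest, and 38 members lie under 1 TPM.

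The first comparison was that between the labels. None of the 77 members of mean 50 or more was called by limma, edgeR or DESeq2. In limma 0.00927% of all 10786 genes were called (1 gene, *Gm15446*). The unadjusted limma p was under 0.05 for 1 of 77 members, a share of 1.3% beside 1.24% of all genes. The median size of the difference was 0.219 on the log2 scale over the members and 0.179 over all genes, and 43 of 77 members had a positive difference, that is, a higher level under p75NTR-/-. All members' adjusted p-values were 0.934 or higher. A p that misses the threshold does not show that the levels were alike, and the smallest p of an exact test of a single gene here, with 2 and 3 libraries, is 0.1.

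The libraries of the labels did not overlap for 11 members. In 9 of 77 (11.7%) every p75NTR-/- library lay above both WT libraries, beside 7.76% of all genes, and in 2 of 77 (2.60%) every p75NTR-/- library lay below, beside 6.96%. *Adamts10*, a protease of the fibrillin-rich matrix, was the member with an unadjusted p under 0.05. It had 142 and 193 normalized counts under WT and 252, 292 and 225 under p75NTR-/-. The log2 difference was 0.62 ± 0.22 (SE), with an adjusted limma p of 0.934. The difference was 0.82 between the libraries numbered 1 and 0.22 between those numbered 4.

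*Tnc*, a glycoprotein of stem cell niches and of injured brain, did not overlap either, with 3815 and 12193 normalized counts under WT and 14122, 12202 and 15287 under p75NTR-/-. Replicate 1 labelled WT stood low, and the other WT library lay just below replicate 2 labelled p75NTR-/-. The log2 difference of *Tnc* was 1.02 ± 0.51 (adjusted p = 0.934 in limma) over all libraries, but 0.18 without replicate 1 labelled WT. It was 1.89 within number 1 and 0.33 within number 4. *Adamts19* had 52 and 135 normalized counts under WT and 172, 147 and 214 under p75NTR-/-, a log2 difference of 1.06 ± 0.45 that fell to 0.37 without the same library. *Col5a3*, a chain of a fibrillar collagen that regulates fibre width, had 165 and 135 normalized counts under WT and 339, 316 and 171 under p75NTR-/-. Its log2 difference was 0.82 ± 0.35, and it was 1.04 within number 1 and 0.34 within number 4. *Mmp15*, *Col5a1*, *Lama1*, *Lama5* and *Lamb1* also lay above WT in every p75NTR-/- library, by log2 differences of 0.29 (*Lama5*) to 0.58 (*Lama1*). *Adamts9* and *Itgb5* lay below, by log2 differences of -0.30 (*Adamts9*) and -0.44 (*Itgb5*).

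The largest differences between label means mostly belonged to members whose libraries spread widely within a label. *Gpc5*, a glypican held on the cell surface by a lipid anchor, had 216 and 342 normalized counts under WT and 55.4, 72.1 and 270.4 under p75NTR-/-. Replicates 1 and 2 labelled p75NTR-/- were low, and replicate 4 lay between both WT libraries. Its log2 difference was -1.39 ± 0.74, or -1.94 within number 1 and -0.34 within number 4. *Nid1* (nidogen 1), which ties laminin to collagen IV, had 136 and 184 normalized counts under WT and 42.5, 37.2 and 254 under p75NTR-/-, so that replicate 4 was the highest library and the other p75NTR-/- libraries the lowest. Within number 1 the log2 difference of *Nid1* was -1.66, and within number 4 it was 0.46. *Itga4*, an integrin subunit that binds fibronectin and VCAM-1, was higher in 2 of the 3 p75NTR-/- libraries, with 103 and 110.3 normalized counts under WT and 399, 303 and 93 under p75NTR-/-. In *Itga4* the log2 difference was 1.94 within number 1 and -0.24 within number 4. *Adamts14*, *Col28a1*, *Lama4* and *Mmp19* complete the 10 largest, with log2 differences between labels of 1.12 ± 1.33 (*Adamts14*), 1.11 ± 1.86 (*Col28a1*), 1.01 ± 0.74 (*Lama4*) and -0.83 ± 1.33 (*Mmp19*). The direction turned to -0.96 for *Adamts14* without replicate 1 labelled WT. Without replicate 4 labelled WT it turned to -0.89 for *Col28a1* and to 0.74 for *Mmp19*.

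**Figure D2:**
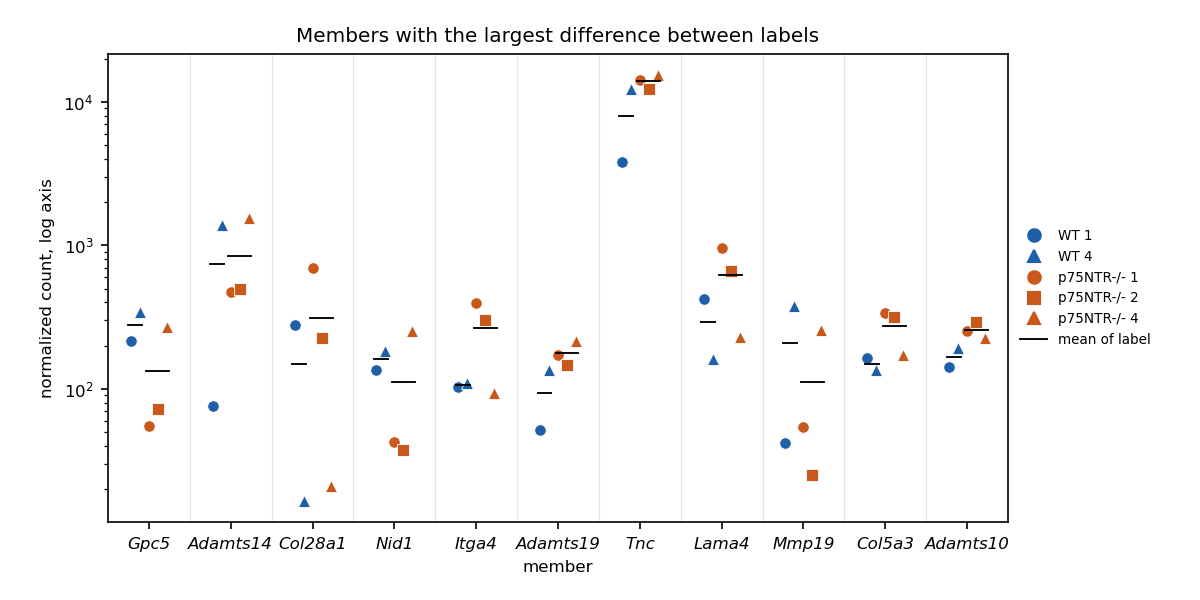
Normalized counts (log axis) of the 10 members with the largest difference between label means, and of *Adamts10*, in the 5 libraries. Colour marks the label, symbol shape the replicate number and short lines the label means. *Tnc*, *Adamts19*, *Col5a3* and *Adamts10* are the members of this plot in which the labels do not overlap.

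Libraries that share a label were not always alike in the members. Within the WT label, 25 of 77 members (32.5%) differed more than 2-fold between replicates 1 and 4, beside 9.95% of all genes. Between replicates 1 and 4 labelled p75NTR-/- the numbers were 25 of 77 (32.5%) and 8.53%, and between replicates 2 and 4 they were 23 of 77 (29.9%) and 7.08%. Replicates 1 and 2 labelled p75NTR-/- were closer, with 5 of 77 members (6.49%) and 1.73% of all genes. Across the labels, 2 of 77 members (2.6%) differed that much between the libraries numbered 4, beside 0.269% of all genes, and the other 5 pairs across labels had 14 to 23 of 77. A principal component analysis of the 77 members set the libraries numbered 4 apart on component 1, with 77.4% of the variance, and replicate 1 labelled WT on component 2, with 16.5%. Over all genes the same components held 51.7% and 36.5%. The replicate numbers were thus compared as well, with label and number as terms in limma. Replicate 2 labelled p75NTR-/- alone sets its own number term, so number 4 against 1 rests on the other libraries. That leaves 1 residual degree of freedom per gene. The smallest standard errors (±) between numbers, near 0.22, come largely from variance that limma shares over all genes, not from spread measured in that gene. The split by number was chosen with earlier results of these data known. No source says what a number stands for, so a preparation, a culture state and a processing day cannot be told apart.

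Again, limma called none of the 77 members between numbers 4 and 1, where 0% of all genes were called. An unadjusted limma p under 0.05 was found for 15 members (19.5%) that were higher in number 4, beside 5.04% of all genes, and for 10 members (13.0%) that were lower, beside 3.5%. The median size of the difference was 0.559 over the members and 0.243 over all genes on the log2 scale. A count model with the same terms, edgeR's quasi-likelihood test, called 4 of 77 members and 0.232% of all genes. DESeq2 called 15 of 77 and 2.23% of all genes. Its calls were higher in number 4 for *Adamts1*, *Adamts14*, *Col12a1*, *Col16a1*, *Col18a1*, *Col4a6*, *Itga5*, *Itga7*, *Mmp19*, *Sdc4* and *Timp1*, and lower for *Adamts12*, *Col28a1*, *Col9a3* and *Lama4*. At least 2-fold higher levels in number 4 within both labels were shown by 12 members, beside 2.07% of all genes, and at least 2-fold lower levels by 6 members, beside 0.76%. The 2 labels contribute separate libraries to that count, but the libraries numbered 4 were the most alike of all pairs. The split by number was chosen with these libraries known to stand apart. Agreement between the labels is therefore not a separate check.

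**Figure D3:**
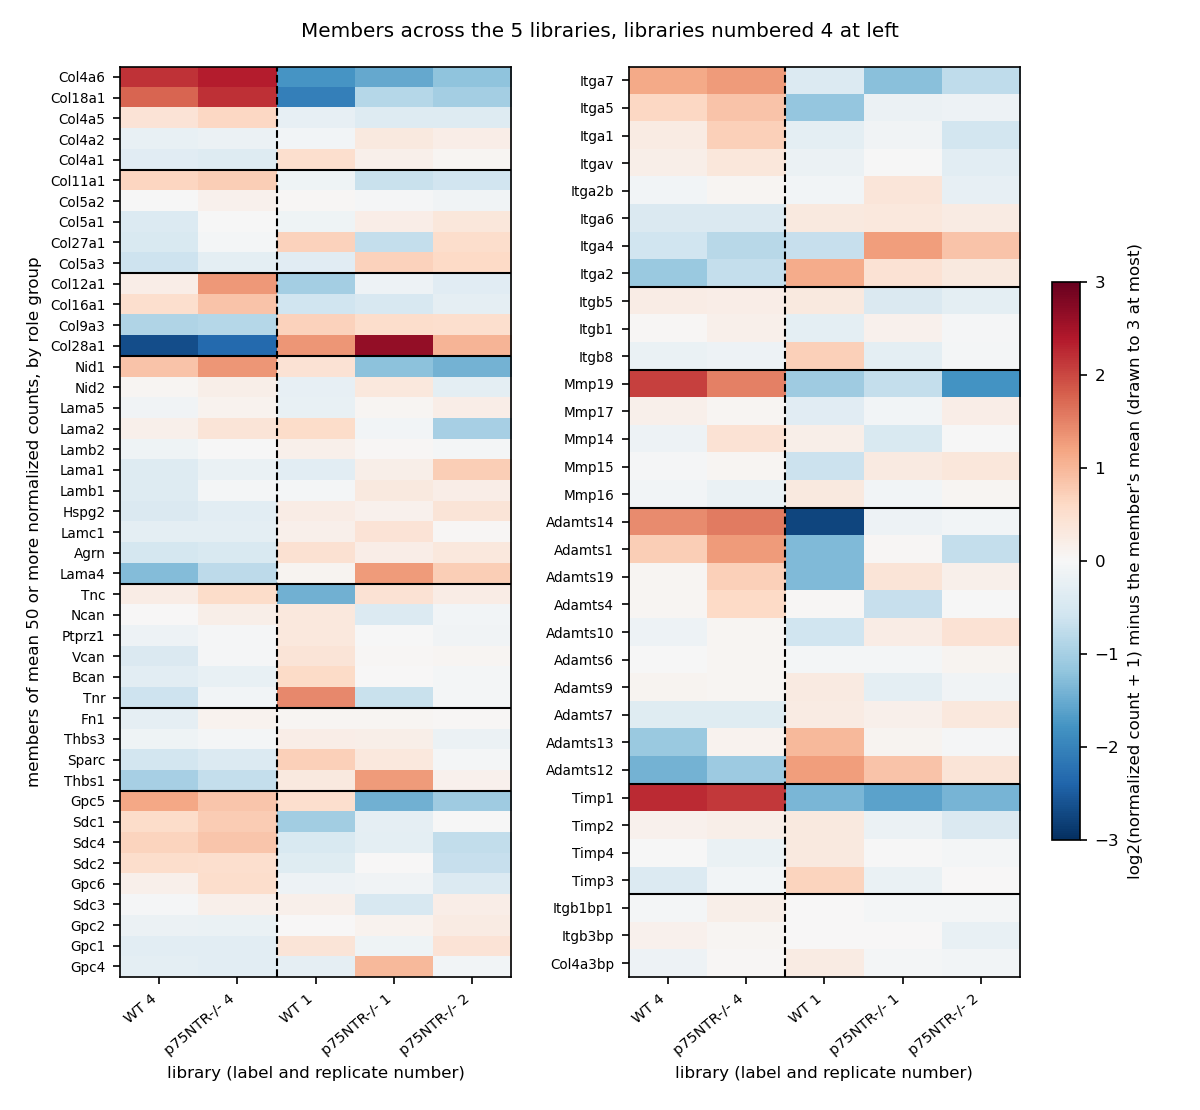
Log2(normalized count + 1) of the 77 members of mean 50 or more, minus each member's mean over the 5 libraries, by role group (separated by black lines). Libraries numbered 4 are left of the dashed line. *Col4a6*, *Col18a1*, *Timp1* and *Mmp19* are high in both of them, and *Col28a1* is low.

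The basement membrane collagens differed between chains of the same network. *Col4a6*, a chain of collagen IV, had 39.2 and 612 normalized counts under WT and 46.5, 58.9 and 698 under p75NTR-/-. Both libraries numbered 4 were high, the other 3 were low, and the ranges were far apart. Number 4 exceeded number 1 by 3.90 ± 0.22 on the log2 scale, which was 15.6-fold within WT and 15-fold within p75NTR-/-. The adjusted p was 0.177 in limma and 0.0311 in edgeR. *Col4a5*, its neighbour and partner chain, had 1598 and 2549 normalized counts under WT and 1448, 1451 and 2933 under p75NTR-/-, a log2 difference of 0.85 ± 0.24 with an adjusted limma p of 0.384. *Col4a1* and *Col4a2*, the chains of the common collagen IV, had negative differences. *Col4a1* had 1155 and 644 normalized counts under WT and 912, 853 and 619 under p75NTR-/-, a log2 difference of -0.70, and *Col4a2* had one of -0.30. *Col18a1*, a heparan sulfate collagen of basement membranes from which endostatin is cut, had 28.5 and 406 normalized counts under WT and 66.3, 58.9 and 550.4 under p75NTR-/-. Its log2 difference of 3.41 ± 0.30 had an adjusted p of 0.177 in limma and 0.0433 in edgeR.

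The collagen IV genes lie in pairs that start close together on opposite strands. The annotated starts of *Col4a5* and *Col4a6* are 1343 bases apart on chromosome X, and those of *Col4a1* and *Col4a2* 21 bases apart on chromosome 8. The promoter windows of 3 collagen IV genes and of *Timp1* are printed because *Col4a6* and *Timp1* were the members furthest above number 1 in number 4, *Col4a5* starts beside *Col4a6*, and *Col4a1* differed the other way. Each runs from 250 bases before to 50 bases after the start given by RefSeq on GRCm38.p6, 5′ to 3′ on the strand of the gene. Capitals mark the GC box, GGGCGG or its reverse complement CCGCCC.

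*Col4a6*, chrX:141474027-141474326, minus strand: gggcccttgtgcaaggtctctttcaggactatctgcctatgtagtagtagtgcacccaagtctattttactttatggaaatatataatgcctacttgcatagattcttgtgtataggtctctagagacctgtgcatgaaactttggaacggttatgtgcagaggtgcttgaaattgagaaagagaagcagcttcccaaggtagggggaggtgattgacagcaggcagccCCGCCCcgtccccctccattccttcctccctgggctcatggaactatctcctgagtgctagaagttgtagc

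*Col4a5*, chrX:141475169-141475468, plus strand: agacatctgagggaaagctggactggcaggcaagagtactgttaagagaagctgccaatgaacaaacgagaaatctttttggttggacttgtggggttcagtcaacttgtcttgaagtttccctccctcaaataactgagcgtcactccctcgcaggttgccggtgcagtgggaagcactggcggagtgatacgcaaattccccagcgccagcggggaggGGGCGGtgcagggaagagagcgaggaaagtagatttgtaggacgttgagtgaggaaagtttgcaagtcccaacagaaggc

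*Col4a1*, chr8:11312777-11313076, minus strand: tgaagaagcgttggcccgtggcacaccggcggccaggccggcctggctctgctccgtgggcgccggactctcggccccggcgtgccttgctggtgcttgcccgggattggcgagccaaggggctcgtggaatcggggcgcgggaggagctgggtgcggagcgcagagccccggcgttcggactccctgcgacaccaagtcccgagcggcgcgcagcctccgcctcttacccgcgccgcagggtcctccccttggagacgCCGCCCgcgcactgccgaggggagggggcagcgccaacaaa

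*Timp1*, chrX:20869916-20870215, plus strand: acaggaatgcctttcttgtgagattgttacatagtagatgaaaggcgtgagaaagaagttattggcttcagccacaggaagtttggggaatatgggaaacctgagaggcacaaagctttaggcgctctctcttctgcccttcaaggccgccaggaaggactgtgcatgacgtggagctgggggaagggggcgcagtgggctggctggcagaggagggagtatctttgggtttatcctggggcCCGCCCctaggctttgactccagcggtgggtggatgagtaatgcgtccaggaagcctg

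Each of the 4 windows holds 1 GC box, so this motif does not set the genes apart. They differ in base composition, with 74% G and C in *Col4a1*, 55% in *Timp1*, 52.7% in *Col4a5* and 48.3% in *Col4a6*. RefSeq promoters were given for 78 members (84 windows). A GC box on either strand stood in 72.6% of these windows and in 35.7% of all 32851 windows. The AP-1 site TGANTCA stood in 3.57% of the members' windows and 7.81% of all, and the TATA box TATAAA in 9.52% and 13.6%, both strands counted. None of the 3 motifs contains another. All members are genes listed in the expression table, whereas the windows of all genes were not limited to listed genes. The shares therefore do not compare members with other listed genes. They describe the windows, and no binding was measured.

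Among the other collagens, *Col28a1*, a collagen known from peripheral glia, differed the other way. It had 279.7 and 16.6 normalized counts under WT and 694, 225 and 21.1 under p75NTR-/-. Both libraries numbered 4 were low, and the log2 difference was -4.48 ± 0.34, with an adjusted p of 0.177 in limma and 0.0311 in edgeR. *Col16a1* and *Col12a1*, collagens that sit on the surface of fibrils, were higher in number 4. *Col16a1* had 576 and 1242 normalized counts under WT and 618, 717 and 1565 under p75NTR-/-, and the log2 difference of *Col12a1* was 1.35 ± 0.23. *Col9a3*, a chain of collagen IX from the same class, was lower, with a log2 difference of -1.49 ± 0.23 and 507 and 167 normalized counts under WT and 450.2, 444 and 172 under p75NTR-/-. Of the fibrillar collagens, *Col11a1* had 682 and 1164 normalized counts under WT, 472, 501 and 1242 under p75NTR-/- and an unadjusted limma p under 0.05, while *Col5a2* stayed between 1484 and 1733 in all libraries.

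Of the 11 measured laminins, nidogens and heparan sulfate proteoglycans of the basement membrane, 0 were higher and 2 were lower at an unadjusted limma p under 0.05. Over all genes 5.04% were higher and 3.5% lower at that p. In a group this small, here and below, a count of 0 does not show that the levels were alike. *Lama4*, the laminin alpha 4 chain of vessel and nerve basement membranes, had 421 and 162 normalized counts under WT and 963, 662 and 231 under p75NTR-/-. Its difference between numbers was -1.71 ± 0.29 on the log2 scale (adjusted p = 0.261 in limma, 0.0991 in edgeR and 0.00122 in DESeq2). *Agrn* was the other, with 5189 and 2616 normalized counts under WT, 4386, 4759 and 2767 under p75NTR-/- and a log2 difference of -0.83 ± 0.24. *Lamb2* stayed between 946 and 1141 normalized counts. None of the 6 brain matrix proteoglycans and tenascins reached an unadjusted limma p under 0.05 between numbers. *Ptprz1* had 65632 and 47509 normalized counts under WT and 52486, 49218 and 51495 under p75NTR-/-, and *Bcan* had 23472 and 12561 under WT and 15695, 15036 and 13515 under p75NTR-/-. In both genes, as in *Vcan*, replicate 1 labelled WT was the highest library. *Sparc* was lower in number 4, with a log2 difference of -0.99 ± 0.26. *Thbs1*, a thrombospondin that activates TGF-beta, was lower too, at -1.64 ± 0.29. *Fn1* stayed between 759 and 978 normalized counts.

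Cell surface receptors differed in both directions. *Itga7*, a laminin receptor subunit, had 1000 and 2923 normalized counts under WT and 557, 782 and 3242 under p75NTR-/-. Number 4 was higher by 2.04 ± 0.35 on the log2 scale, with an adjusted p of 0.261 in limma, 0.0939 in edgeR and 1.84e-06 in DESeq2. *Itga6*, the other main laminin receptor subunit, was lower, with a log2 difference of -0.73 ± 0.22 and 4620.2 and 2832 normalized counts under WT and 4736, 4539 and 2806 under p75NTR-/-. *Itga5*, the fibronectin receptor subunit, was higher by 1.40 ± 0.30, whereas *Itga2*, a collagen receptor subunit, was lower, with a log2 difference of -1.68 ± 0.36. None of the 3 measured beta subunits reached an unadjusted limma p under 0.05, and *Itgb1* stayed between 11516 and 15856 normalized counts. Of the 9 measured glypicans and syndecans, 3 were higher and 0 lower at that p, beside 5.04% and 3.5% of all genes. *Sdc4*, a syndecan of focal adhesions, had 1043 and 2269 normalized counts under WT and 1172, 864 and 2553 under p75NTR-/-, and a log2 difference of 1.12 ± 0.22. *Sdc1* was higher in number 4 by 1.31 ± 0.27 and *Gpc5* by 1.46 ± 0.48 on the log2 scale.

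Proteases and inhibitors gave further large differences. *Timp1*, an inhibitor induced by cytokines and growth factors, had 29.4 and 370.3 normalized counts under WT and 24.7, 28.8 and 338 under p75NTR-/-. The 2 libraries numbered 4 were 12.6-fold (WT) and 13.7-fold (p75NTR-/-) above the library numbered 1 of the same label. The log2 difference of 3.66 ± 0.22 had an adjusted p of 0.177 in limma and 0.0339 in edgeR. *Timp2*, *Timp3* and *Timp4* differed by 0.10, -0.48 and -0.25, each with an unadjusted limma p above 0.05. *Mmp19*, a secreted metalloproteinase, had 42.2 and 377 normalized counts under WT and 54.4, 25.2 and 257 under p75NTR-/-, a log2 difference of 2.67 ± 0.33. It was the only one of 5 measured metalloproteinases with an unadjusted limma p under 0.05, where 5.04% of all genes were higher at that p. *Adamts14*, which trims the ends of procollagen, had 76.5 and 1395 normalized counts under WT and 473, 496 and 1555 under p75NTR-/-. Both libraries numbered 4 were high, and replicate 1 labelled WT was far below the rest. The log2 difference was 2.94 ± 0.69. *Adamts1*, a protease of versican and related proteoglycans, was higher by 1.64 ± 0.31. *Adamts12* was lower, with a log2 difference of -2.30 ± 0.29 and 764 and 119.6 normalized counts under WT and 583, 422 and 151 under p75NTR-/-.

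**Figure D4:**
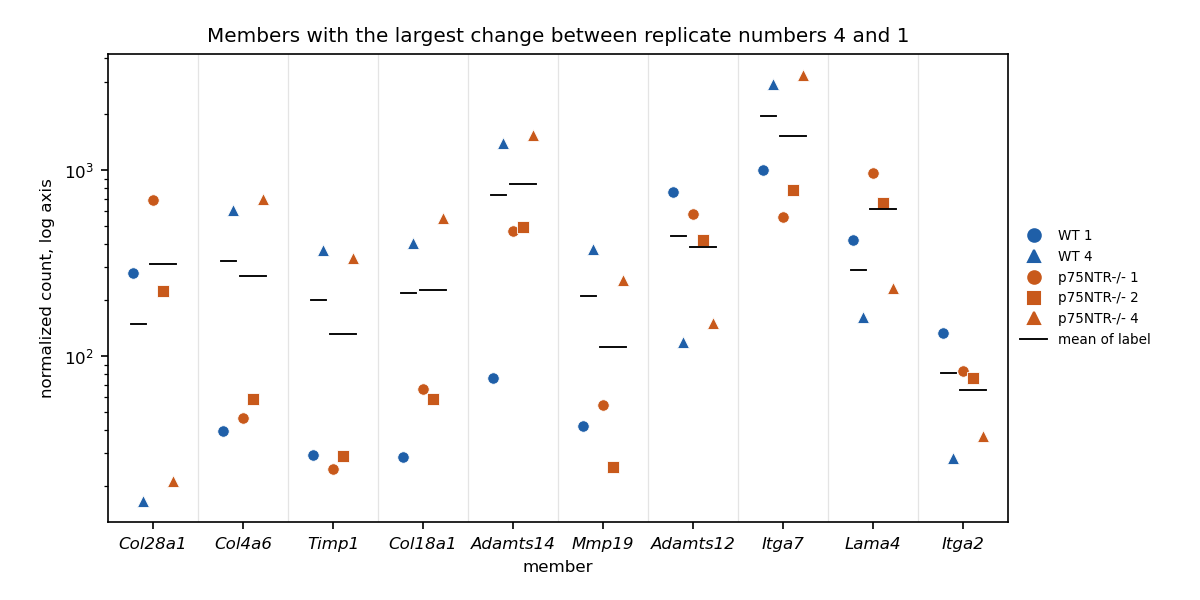
Normalized counts (log axis) of the 10 members with the largest difference between replicate numbers 4 and 1 in the 5 libraries. Colour marks the label, triangles the libraries numbered 4 and short lines the label means. In each of these members both triangles lie on the same side of the other 3 libraries.

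Among the 36 members under the minimum, *Itgb2*, the beta subunit of leukocyte integrins, had 10.8 and 57.2 normalized counts under WT and 3.96, 6.01 and 65.5 under p75NTR-/-. *Col6a1*, a collagen VI chain, had 7.85 and 60.3 under WT and 7.92, 3.6 and 58.1 under p75NTR-/-, so both were higher in the libraries numbered 4. Other scarce members were lower there. *Adamts5*, *Adamts16*, *Adamts15* and *Col9a2* had log2 differences between numbers of -1.90, -1.78, -1.65 and -1.44, and *Col13a1* had 0 counts in both libraries numbered 4. The members under the minimum thus differed in both directions. *Thbs4*, a thrombospondin of newborn astrocytes of the subventricular zone, had 2.94 and 4.16 normalized counts under WT and 10.9, 6.01 and 10.6 under p75NTR-/-. The labels did not overlap, and its unadjusted limma p between labels (0.0143, adjusted 0.934) was the lowest of the members. These values rest on 3 and 4 counts under WT and on 11, 5 and 10 under p75NTR-/-.

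Genes that act on the matrix were read from lists outside the members. Of 16 measured genes of collagen folding and cross-linking, 3 were higher in number 4 at an unadjusted limma p under 0.05 and 0 lower. Over all genes 5.04% were higher and 3.5% lower at that p. *P4ha2* and *P4ha1*, which hydroxylate proline in collagen, had log2 differences of 5.17 ± 1.38 and 1.75 ± 0.51, and the cross-linking enzyme *Loxl2* 2.58 ± 0.65. *P4ha2* had 67.7 and 420.3 normalized counts under WT and 0.99, 51.7 and 420.5 under p75NTR-/-, so 1 of these libraries held a single count. Of 30 enzymes of heparan and chondroitin sulfate, 3 were higher (*Sulf1*, *Chst3* and *Chst11*) and 1 lower (*Chst12*), the latter a share near that over all genes. *Sulf1*, which removes sulfate from heparan sulfate outside the cell, had 190.4 and 957 normalized counts under WT and 170.2, 162 and 876 under p75NTR-/-, and edgeR called it (adjusted p = 0.0442). Between labels, *Chst7* of this list had an unadjusted limma p under 0.05, with a log2 difference of 0.75 ± 0.28. Of 6 measured hyaluronan genes, the receptor *Cd44* and the enzyme *Hyal1* were higher in number 4 and the hyaluronidase *Cemip2* was lower. Among focal adhesion genes *Zyx* was higher and *Actn1* lower, and of 12 other matrix receptors 2 were higher (*Cd151* and *Cd9*, tetraspanins that bind integrins).

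Some markers of cell types differed between the replicate numbers too. The NSPC markers *Vim*, *Nes* and *Sox2* were detected in every library. Of 12 measured NSPC markers, 1 was higher in number 4 at an unadjusted limma p under 0.05 and 0 were lower. It was *Vim*, with a log2 difference of 0.94 ± 0.22. Others had negative differences that did not reach that p, such as *Hes5* with -2.44 ± 1.07. Of 7 measured astrocyte markers, 2 were higher in number 4 at that p and 0 lower. *Gfap*, the intermediate filament of astrocytes, had 241 and 680.3 normalized counts under WT and 11.9, 1.2 and 746 under p75NTR-/-, and *Aqp4* (the water channel) had 395 and 696 under WT and 69.3, 114 and 566 under p75NTR-/-. Between labels, all 7 measured astrocyte markers had negative log2 differences, from -0.16 ± 0.24 (*Aldh1l1*) to -3.88 ± 2.52 (*Gfap*). *Aldoc*, at -0.83 ± 0.32, was the only one of them with an unadjusted limma p under 0.05 between labels. *S100b*, another marker of the list, had 1421 and 347 normalized counts under WT and 475, 369 and 409.9 under p75NTR-/-, and a log2 difference between numbers of -1.12 ± 0.53 that did not reach that p. The summed astrocyte markers were 2107 and 1257 TPM in replicates 1 and 4 labelled WT, and 825, 895 and 1385 TPM in replicates 1, 2 and 4 labelled p75NTR-/-. The sum was thus lower in number 4 within WT and higher within p75NTR-/-. Of 6 markers of the oligodendrocyte lineage, 2 were lower in number 4 (*Olig1* and *Olig2*), with sums of 450 and 440 TPM in the libraries numbered 4 and 682 to 1025 TPM in the others. Of 5 neuronal markers, *Nefl* and *Elavl3* were higher and *Map2* lower.

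Markers of endothelial cells, of mural cells and fibroblasts, and of microglia and macrophages were low. The endothelial list had 3 of 10 genes in the table and a sum of 1.11 to 5.51 TPM, and *Pecam1*, *Cdh5* and *Cldn5* are not listed. The list of mural cells and fibroblasts had 4 of 12 genes and 11.8 to 26.2 TPM, and *Pdgfrb*, *Dcn* and *Lum* are not listed. The microglia list had *Cd68* alone, at 1.91 to 11.4 TPM, with *Aif1*, *Cx3cr1*, *Csf1r* and *Ptprc* not listed. The table lists only genes above a mean level, so a gene that is not listed has no value here. Even so, *Flt1*, *Prrx1* and *Cd68* of these lists were higher in number 4, by log2 differences of 2.83, 1.73 and 2.26. Each had an unadjusted limma p under 0.05. The other genes of these lists that are in the table did not reach that p, and they differed in both directions. *Acta2*, *Tagln* and *Kdr* had log2 differences of -0.89, -0.69 and -0.29, whereas *Egfl7* and *Foxc1* had 1.46 and 0.99. The part of any of these cell types in the differences of the members was not tested, and in bulk RNA fewer cells of a type and less RNA per cell cannot be told apart.

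Transcripts were then read singly, since an isoform can move while the sum does not. None of the 106 transcripts of members of mean 50 or more was called between labels, where 0.0202% of all 14857 transcripts were called. An unadjusted limma p under 0.05 was found for 2 of 106 (1.89%), one of *Adamts10* and one of *Gpc5*, beside 1.61% of all. Of the members, 38 had more than 1 listed transcript. The split of reads between isoforms is an estimate, and it rests on few bases where isoforms share nearly all exons.

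*Hspg2*, the gene of perlecan, had the largest shift of shares among members of mean 200 or more. Its 2 listed transcripts lie on chromosome 4 from 137468769 to 137570630 (Hspg2-201, plus strand of GRCm38, 97 exons) and from 137468803 to 137570629 (Hspg2-203, 97 exons). Hspg2-201 made up 74.4 and 30.4 percent of the summed TPM under WT and 73.7, 57.4 and 37.6 percent under p75NTR-/-. Both libraries numbered 4 had the low shares, but 41 bases of Hspg2-201 and 30 of Hspg2-203 are in no other listed transcript. *Lamb1* was nearly all Lamb1-201, at 100 and 86.5 percent under WT and 95.8, 100 and 74.6 percent under p75NTR-/-. Lamb1-205, a coding transcript on chromosome 12 from 31265234 to 31329493 with 34 exons, took the rest and was at 0 in 2 libraries. *Adamts14* was mainly Adamts14-201, with 100 and 85.6 percent under WT and 80.2, 96.2 and 86 percent under p75NTR-/-. *Fn1* was split over 6 listed transcripts of chromosome 1. Fn1-214 held 54.2 and 55.8 percent under WT and 64, 66.1 and 44.3 percent under p75NTR-/-, and Fn1-203 34.3 and 30.9 percent under WT and 16.7, 25.4 and 42 percent under p75NTR-/-. These transcripts differ by alternative exons, and 3 bases of Fn1-214 and 25 of Fn1-203 are their own.

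**Figure D5:**
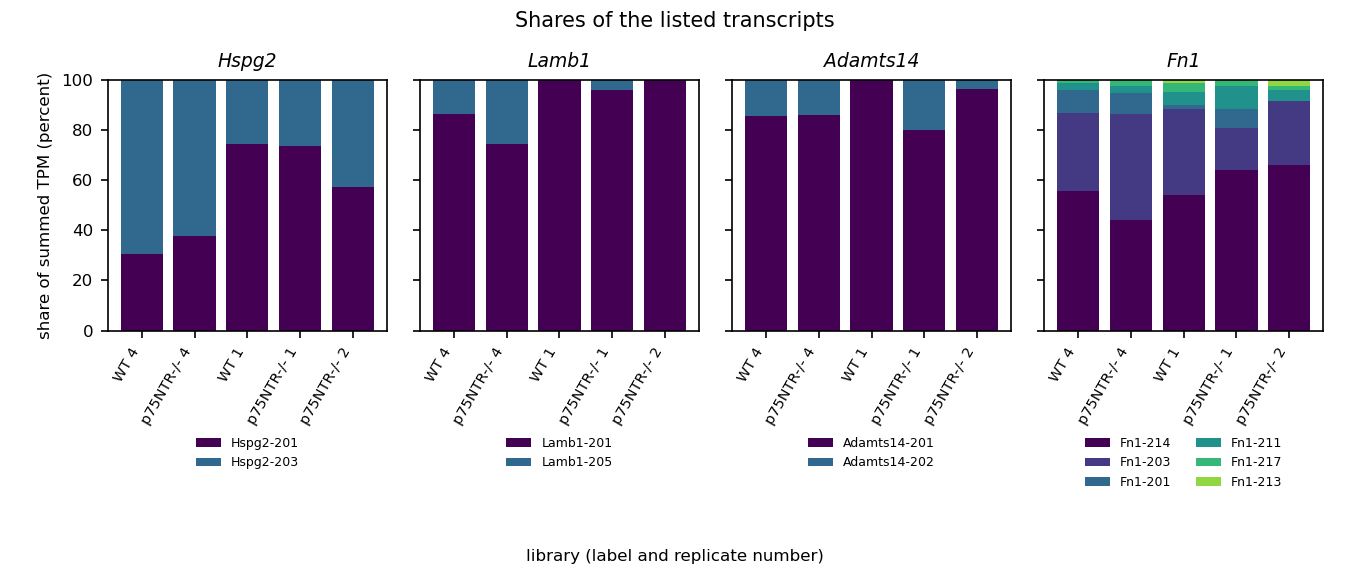
Share of each listed transcript in the summed TPM (percent, bars from 0 to 100) of *Hspg2*, *Lamb1*, *Adamts14* and *Fn1* in the 5 libraries, with the libraries numbered 4 at left. Hspg2-203 takes the larger share in both libraries numbered 4 and the smaller one in the other 3.

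Shares also differed between libraries in other members. Col16a1-201 held 16.8 and 22.9 percent of *Col16a1* under WT and 1.51, 14.8 and 23.3 percent under p75NTR-/-, and was lowest in replicate 1 labelled p75NTR-/-. Adamts7-201 held 38.6 and 52.1 percent of *Adamts7* under WT and 34.1, 49.7 and 55.7 percent under p75NTR-/-. Adamts7-202 had 0 counts in both libraries numbered 4 and 99.1, 82.1 and 86.5 normalized counts in the others, although 2 of its bases are its own. Col4a3bp-201, of a gene matched by name only, held 63.3 and 49.8 percent under WT and 72.8, 76.7 and 49 percent under p75NTR-/-. *Vcan* (versican, chromosome 13, minus strand) is among the genes in the tables of the study, and its gene sum had 1703 and 966 normalized counts under WT and 1325, 1350.3 and 1272 under p75NTR-/-. Vcan-202 carried most of its counts. Vcan-206 had 81.5 normalized counts in replicate 1 labelled WT and 0 counts in each of the other 4 libraries, and 0 of its bases are its own. The largest shift of shares in *Vcan*, 27.9 percentage points, was that of the short transcript Vcan-209, which had 8.45 to 27.6 normalized counts. *Col11a2*, also among those genes, was near the limit of detection. Its 2 listed transcripts lie on chromosome 17 from 34039472 to 34065808 with 64 exons each. Col11a2-203 had 9 counts in each WT library and 0 in each p75NTR-/- library, whereas Col11a2-202 had 12 counts in replicate 1 labelled p75NTR-/- and 0 elsewhere.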

How the data were processed

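RNA-Seq was analysed in 5 libraries from one table of the whole series, which left 0 columns of other samples. The authors quantified reads with Salmon 0.10.2 against transcripts of GRCm38.p6 and normalized them with DESeq2 1.22.0, per the labels. The deposited signal of a library is a count divided by its size factor, plus 0.5. After subtraction 100% of values were whole multiples of 1 step per library (tolerance 0.02 steps), which gave the counts back. The deposited TPM columns are given as a score, because 303 repeated lines raise their sums. These lines were dropped. The deposited log2 fold changes and p-values are the authors' own DESeq2 comparison of the 2 labels and were not used.

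Values were summed per symbol and tested with limma 3.58.1 (lmFit, eBayes defaults, pseudocount 1) over 12588 genes, without a covariate between labels and with label and number as terms between numbers. Adjustment was Benjamini-Hochberg over all genes. edgeR 4.0.16 and DESeq2 1.42.0 on the recovered counts, other scalings, pseudocounts, filters and left-out libraries were alternatives, and the procedure was tested on simulated data. Coordinates come from GENCODE M21 (GRCm38), matched by identifier for all 169 transcripts. Named members were those called, the 3 of highest TPM per role group, the 10 with the largest difference in each comparison, those whose labels do not overlap at 1.5-fold, *Vcan* and *Col11a2*, and isoforms of the 8 members (mean of 200 or more) with the largest shift of shares. Others (such as *Itga5*, *Col11a1*, *Itgb2* and *Thbs4*) were added after their values were seen. Members and lists were chosen with earlier results of these data known. The full count of the focal adhesion list is not reported here.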

Additional observations from a re-analysis of the deposited data

How the results depend on the processing

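No member was called between labels under any of the 15 alternatives that were run. Over all genes 1 was called by limma, 0 by edgeR, with TPM and with the replicate block, and 7 by DESeq2, and 0 to 1 when a library was left out (0 without replicate 1 labelled WT or replicate 2 labelled p75NTR-/-). Members with an unadjusted p under 0.05 between labels numbered 1 in limma, 2 in edgeR, 2 in limma with trend and robust variance, 4 in DESeq2, 0 with TPM and 5 with no minimum of the mean. They numbered 0 to 10 when a library was left out: 10 without replicate 4 labelled WT, 8 without replicate 4 labelled p75NTR-/-, and 0 without replicate 1 or replicate 2 labelled p75NTR-/-. With no minimum of the mean 1 transcript of a member was called (Col11a2-203). Between numbers 4 and 1, edgeR called 4 members and DESeq2 15, while limma called 0 under its 5 other settings. Of these settings, leaving out replicate 2 labelled p75NTR-/- could not change the outcome, since that library alone sets its own number term. Reversals between labels were looked for in 11 named genes under 14 alternatives each. The direction was kept in 151 comparisons and reversed in 3. When a library was left out, *Adamts14* ranged from -0.96 (without replicate 1 labelled WT) to 3.21 on the log2 scale. *Col28a1* ranged from -0.89 (without replicate 4 labelled WT) to 3.10 and *Mmp19* from -2.39 to 0.74 (without replicate 4 labelled WT). The causes were not tested.

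With the replicate number as a block, 4 members had an unadjusted p under 0.05 between labels and 0 genes were called. Over 10786 genes, which are not independent replicates, deviations from the label means correlated with r = 0.256 between the libraries numbered 1 and 0.476 between those numbered 4. The deviations of the 2 WT libraries are equal and opposite by construction. The 2 correlations are therefore tied to each other and are not separate checks. With 2 pairs and no label for a shared litter or day, the libraries are taken to share only a number. Most fits between numbers with a library left out were not run, since no residual degrees of freedom remain. Depth limits the 16 members with a library at 3 counts or fewer.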
